A study of Mus musculus with 36 samples.

Results

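The 10 genes described here encode repressors and output factors of the circadian clock, together with one activator subunit: Nr1d1, Nr1d2, Ciart, Per1, Per2, Per3, Cry1, Dbp, Tef and Clock. They were named as a list, not chosen by a threshold, and all 10 of 10 were found in the liver count table of 136300 gene rows and in the fibroblast table of 32266 genes. All 10 passed the filter on low values in liver, among 23875 tested genes, and in fibroblasts, among 13914. The study measured poly-A RNA by sequencing, as 12 mouse liver libraries and 24 libraries of mouse embryonic fibroblasts (MEFs), with 3 libraries a group. The livers came from male mice aged 4 weeks, all killed at ZT14, zeitgeber time 14, which the labels place 2 h into darkness. The 4 liver groups were wild-type fed ad libitum, wild-type fasted for 24 h, and fed or fasted mice labelled Ttr CRE+, Vps15f/f, called labelled knockout below. Vps15, encoded by Pik3r4, is the regulatory partner of Vps34, the class 3 PI3K, and the Ttr promoter drives Cre in hepatocytes while other liver cells keep the gene. The labels name the cell type as hepatocyte, but the RNA was extracted from powdered whole liver. The fibroblasts all carried Vps15f/f and received an adenovirus with GFP (labelled wild-type) or with CRE (labelled Vps15KO). They were kept in basal medium, in methionine-free medium for 4 h, or in methionine-free medium for 4 h followed by methionine for 1 h or 4 h. Only 1 time of day was sampled in liver, so every value below is a level at ZT14 and not a rhythm.

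In the clock of mammalian cells, the CLOCK and BMAL1 (Arntl) proteins bind E-boxes as a heterodimer and activate the Per and Cry genes, whose proteins return to the nucleus and inhibit CLOCK and BMAL1. CIART (also called CHRONO) is a further inhibitor of that heterodimer. The nuclear receptors REV-ERBα (Nr1d1) and REV-ERBβ (Nr1d2) are E-box targets that repress Arntl, Clock and Cry1 through ROR elements. DBP and TEF are transcription factors of the PAR bZIP family that activate D-box genes, among them genes of hepatic drug and heme metabolism. In liver, feeding time, glucocorticoids and cAMP also act on some of these genes, Per1 and Per2 in particular.

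RefSeq promoter windows (GRCm38.p6), 250 bases before to 50 bases after each annotated start site, were found for 9 members in 13 windows. Per2 was the member without one. The motifs searched on both strands were the E-box CACGTG, the E-prime box CACGTT, the D-box TTATGTAA, the ROR/REV-ERB element TAGGTCA and the cAMP response element TGACGTCA. The upstream 250 bases of 5 members are shown because they hold the matches that separate the members: Ciart (chr3:95882229-95882478, minus strand), Cry1 (chr10:85185055-85185304, minus), Per3 (chr4:151044666-151044915, minus), Per1 (chr11:69098699-69098948, plus) and Nr1d1 (chr11:98775378-98775627, minus). Each is written 5′ to 3′ on the gene's strand, with motif letters in capitals; a match to the E-prime box on the other strand reads AACGTG.
Ciart: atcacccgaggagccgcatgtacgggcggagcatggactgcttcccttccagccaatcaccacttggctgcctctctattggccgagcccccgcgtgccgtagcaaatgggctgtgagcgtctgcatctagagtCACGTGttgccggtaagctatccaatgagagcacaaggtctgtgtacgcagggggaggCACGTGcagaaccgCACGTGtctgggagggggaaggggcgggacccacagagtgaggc
Cry1: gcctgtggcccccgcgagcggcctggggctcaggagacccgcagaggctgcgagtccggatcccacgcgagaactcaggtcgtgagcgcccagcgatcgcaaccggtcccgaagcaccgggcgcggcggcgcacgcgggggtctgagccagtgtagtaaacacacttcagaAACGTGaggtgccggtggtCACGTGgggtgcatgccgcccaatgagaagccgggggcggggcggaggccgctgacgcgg
Per3: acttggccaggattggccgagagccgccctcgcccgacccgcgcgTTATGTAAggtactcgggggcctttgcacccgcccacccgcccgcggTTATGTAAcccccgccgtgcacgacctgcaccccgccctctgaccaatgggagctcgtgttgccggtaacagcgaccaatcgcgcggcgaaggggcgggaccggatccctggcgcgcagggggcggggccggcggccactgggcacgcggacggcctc
Per1: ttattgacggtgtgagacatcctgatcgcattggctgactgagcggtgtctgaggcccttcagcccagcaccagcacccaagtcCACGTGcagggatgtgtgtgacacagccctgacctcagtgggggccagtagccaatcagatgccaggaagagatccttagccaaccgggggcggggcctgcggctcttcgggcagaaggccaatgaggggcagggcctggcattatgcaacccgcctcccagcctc
Nr1d1: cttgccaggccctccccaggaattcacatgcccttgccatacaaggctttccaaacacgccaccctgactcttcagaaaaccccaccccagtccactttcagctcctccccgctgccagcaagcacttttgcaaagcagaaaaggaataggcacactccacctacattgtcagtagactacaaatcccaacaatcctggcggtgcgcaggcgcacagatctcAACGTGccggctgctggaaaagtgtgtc
The E-box was present in 4 of the 9 members with a window (Ciart, Per1, Cry1 and Tef) and in 7.15% of all 32851 windows. Ciart held 3 E-boxes, with first bases 116, 58 and 44 bases before the start site. Cry1 held an E-box and an E-prime box. The E-prime box was also present in Nr1d1, and in 4.68% of all windows. The D-box was found in 1 member, Per3, which held 2 copies, and in 0.938% of all windows. The ROR/REV-ERB element and the cAMP response element matched no member window, against 2.61% and 1.79% of all windows, which says only that these letters are not in these windows. None of the 11 matches overlapped another.

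**Figure D1:**
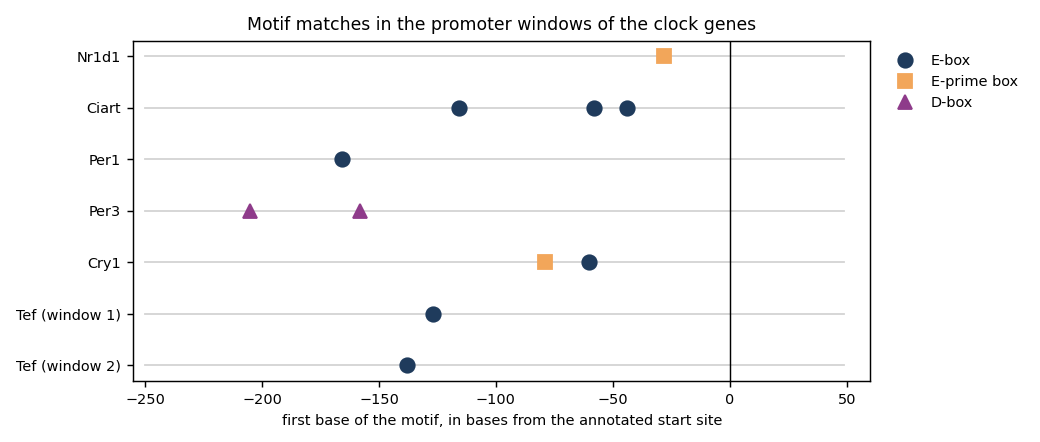
Position of each motif match in the promoter windows of the members that held any (x axis, first base of the match in bases from the annotated start site; rows are members, with a row for each of 2 windows of Tef; grey lines span the window). All 11 matches lie before the start site, and Ciart is the member with 3 E-boxes.

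Liver libraries held 9110836 to 12870944 counts, and the counts recovered from the fibroblast values summed to 19345029 to 21245006 a library. Liver levels below are CPM, counts scaled to a common library size, after scaling by TMM (trimmed mean of M values). Nothing in the labels used here says that libraries of a group came from separate animals or cultures, so p-values measure the spread between these libraries, named a, b and c in liver because the columns carry no replicate number. Pik3r4 itself did not pass between labels (adjusted p = 0.315 in fed and 0.666 in fasted liver): fed livers held 21.2 ± 3.14 CPM in wild-type and 24.0 ± 1.63 in labelled knockout (SD, n = 3), and fasted livers 22.3 ± 2.07 and 21.1 ± 2.87. Those counts cover the whole gene, the deleted part is not named in the labels, and so they do not check the label. Summed over 10 hepatocyte markers, libraries held 32141 to 34618 CPM in fed and 40918 to 42818 in fasted wild-type liver, against 13267 to 15353 and 14312 to 16791 in fed and fasted labelled knockout. Of those markers, 9 of 10 were lower in labelled knockout in the fed state and 10 of 10 in the fasted state. Summed over 10 macrophage markers, libraries held 1547 to 1964 and 500.1 to 702.6 CPM in fed and fasted wild-type, and 2859 to 3216 and 2462 to 2867 in fed and fasted labelled knockout. Macrophage markers were higher in labelled knockout for 8 of 10 in the fed and 10 of 10 in the fasted state, neutrophil markers for 5 of 5 tested in each state, cholangiocyte markers for 2 and 5 of 5 tested, stellate markers for 5 and 4 of 7, and endothelial markers for 3 of 6 in each state, with 2 endothelial markers lower. The neutrophil markers summed to 3.87 to 5.77 CPM in fasted wild-type liver and 34.6 to 38.1 in fed labelled knockout, the lowest and the highest of the 4 groups, with 1 of the 6 at 0 in the wild-type groups. Cholangiocyte markers summed to 43.3 to 57.3 CPM in the wild-type libraries and 143.3 to 222.3 in labelled knockout, stellate markers to 364.8 to 479.0 and 567.4 to 814.5, and endothelial markers to 343.0 to 578.9 and 551.3 to 630.5. In bulk tissue, fewer cells of a type and less RNA per cell cannot be told apart, and the part of these markers in the results below was not tested.

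Fed wild-type library b stood apart from libraries a and c in clock genes. Nr1d1 stood at 7.30 CPM in b against 38.0 and 35.8 in a and c, and Dbp at 7.30 against 31.0 and 32.8. Per1 was on the other side, at 113 against 64.8 and 61.5. Arntl, the partner of CLOCK, was 1.84-fold above the mean of a and c in library b. The median of all tested genes differed by 0.01 on the log2 scale. TMM scaling holds that median near 0, so it does not show how far b differs over all genes. By a chi-square per degree of freedom on the raw counts, b and c were the most alike pair (7.675). The value was 14.64 for a and b and 12.93 for a and c. The spread of Nr1d1 among the 3 fed wild-type libraries, an SD of 1.33 on the log2 scale, lay at percentile 99.33 of all tested genes, and that of Dbp (1.21) at percentile 99.03. Per2, Ciart and Clock did not share this spread, at percentiles 13.2, 28.1 and 28.3. Counts of members that rest on fed wild-type liver are therefore given with and without library b. Values of single members, and of other genes and lists, include library b unless stated. Library b was set apart after these levels were seen, so values without it are not independent of that choice.

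Exons of 3 members overlap another gene on the opposite strand in GENCODE M21. Dbp shares 539 bases (18% of its exon length) with Sphk2, Nr1d1 shares 263 bases (8.55%) with Thra, and Tef shares 193 bases (2.45%) with Gm17597. The libraries were made with a strand-marking method, but whether counting used strand is not given in the sources used here, so for these 3 genes some reads may belong to the partner.

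Most members were lower in labelled knockout liver, fed and fasted. In fed liver 7 of 10 fell (Per2, Ciart, Per3, Cry1, Dbp, Tef and Clock) and none rose, and in fasted liver the same 7 and Nr1d2 fell. Of all tested genes, 46.2% were called between labels in fed liver (22.8% lower) and 56.1% in fasted liver (28.1% lower), by edgeR's quasi-likelihood test at a Benjamini-Hochberg adjusted p under 0.05. The members' median log2 fold change was -1.11 in fed and -1.13 in fasted liver, against 0.01 over all tested genes in each state. The hepatocyte markers had larger median falls between the same labels, at -1.32 in fed and -1.39 in fasted liver. Whether the members' fall is apart from that of the markers was not tested. Without library b, the same 7 fell in fed liver, where 40.8% of genes were called and 20.3% were lower.

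Among the inhibitors of CLOCK and BMAL1, Per2 (chr1:91415982-91459324, GRCm38, GENCODE M21) and Ciart had the largest falls of the members in fed liver, and the gap between them was within their SE. The level of Per2 was 122, 116 and 109 CPM in the fed wild-type libraries and 33.4, 26.7 and 20.1 in fed labelled knockout. In fasted liver it was 58.5, 58.2 and 56.6 CPM in wild-type and 22.2, 28.7 and 20.8 in labelled knockout. The labels did not overlap in either state, and the fed wild-type libraries were the highest of all 12. The difference was 4.33-fold in fed liver (log2 -2.11 ± 0.16 SE, adjusted p = 1.43e-08) and 2.41-fold in fasted liver (log2 -1.27 ± 0.16, adjusted p = 2.57e-06).

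Ciart (chr3:95878503-95882251), whose protein inhibits the CLOCK and BMAL1 heterodimer, fell by 2.03 on the log2 scale in fed liver (SE 0.23, adjusted p = 1.75e-06). Its fed wild-type libraries held 23.8, 19.95 and 21.5 CPM and the fed labelled knockout ones 4.87, 7.15 and 3.89. The fasted wild-type libraries held 29.6, 25.6 and 25.6 CPM and the fasted labelled knockout ones 8.15, 4.90 and 9.50, a fall of 1.84 ± 0.22 (adjusted p = 2.37e-06). All 6 wild-type libraries lay above all 6 labelled knockout libraries.

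Cry1 (chr10:85131700-85185064), the cryptochrome of the list, held 34.7, 43.6 and 41.4 CPM in fed wild-type and 17.4, 15.1 and 15.5 in fed labelled knockout. In fasted liver it held 43.3, 48.7 and 37.0 CPM in wild-type and 8.73, 12.9 and 8.97 in labelled knockout. The label groups were apart in each state, and the fasted labelled knockout libraries were the lowest of the 12. The fall was 2.49-fold in fed liver (log2 -1.32 ± 0.16, adjusted p = 2.43e-06) and 4.21-fold in fasted liver (log2 -2.07 ± 0.16, adjusted p = 1.11e-08).

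Per3 (chr4:151003652-151044665), a period gene with a weaker role in the oscillator than Per1 and Per2, held 21.4 to 35.6 CPM in fed and 17.3 to 26.5 in fasted wild-type liver. In labelled knockout it held 8.71 to 10.4 CPM in fed and 6.99 to 10.5 in fasted liver, below every wild-type library. It fell by 1.62 ± 0.20 on the log2 scale in fed liver (adjusted p = 5.42e-06) and by 1.34 ± 0.21 in fasted liver (adjusted p = 3.26e-05). Per1 (chr11:69095217-69109960) behaved otherwise. Its levels in labelled knockout, 71.2 to 91.9 CPM fed and 92.9 to 109 fasted, overlapped those in wild-type, 61.5 to 113 fed and 101 to 139 fasted. The log2 difference of Per1 was -0.01 in fed liver (95% interval -0.45 to 0.42) and -0.31 in fasted liver (-0.75 to 0.13), with adjusted p = 0.961 and 0.214.

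The PAR bZIP output factors were lower in labelled knockout. Dbp (chr7:45705088-45710203) held 10.2, 9.69 and 8.98 CPM in fed labelled knockout, under fed wild-type libraries a and c (31.0 and 32.8) but above library b (7.30). It fell by 1.30 ± 0.44 on the log2 scale (adjusted p = 0.0363), and by 1.73 ± 0.17 without library b (adjusted p = 6.93e-07). Library b was set apart partly by its low Dbp, so the value without it rests on a choice made on the tested values. Dbp missed the threshold without fed wild-type a or c, or without any 1 fed labelled knockout library, at adjusted p from 0.0834 to 0.128. It also missed it with library sizes alone (-0.92, adjusted p = 0.101), with no filter on low counts (0.111) and with only the compared groups fitted (0.124). In fasted liver Dbp held 43.7, 37.5 and 32.7 CPM in wild-type and 13.97, 12.9 and 9.27 in labelled knockout, with no overlap and a fall of 1.65 ± 0.44 (adjusted p = 0.00933).

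Tef (chr15:81802421-81826863), the other PAR bZIP member, held 135.0 to 189.4 CPM in fed wild-type and 82.9 to 94.4 in fed labelled knockout. In fasted liver it held 166.1 to 189.5 CPM in wild-type and 87.3 to 91.9 in labelled knockout. The label groups were apart in each state, by 1.89-fold in fed (adjusted p = 8.65e-06) and 1.98-fold in fasted liver (adjusted p = 2.36e-06). Clock (chr5:76209868-76304792), the activator subunit, was 1.69-fold lower in fed labelled knockout (adjusted p = 8.26e-05) and 1.86-fold lower in the fasted state (adjusted p = 1.06e-05). Its libraries ranged from 44.8 to 61.8 CPM in wild-type and from 27.9 to 34.3 in labelled knockout.

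The REV-ERB genes are repressors of Arntl, and between labels Nr1d2 passed in fasted liver and Nr1d1 in neither state. Nr1d1 (chr11:98767932-98775333) held 23.0, 25.7 and 21.4 CPM in fed labelled knockout, between library b (7.30) and libraries a and c (38.0 and 35.8) of fed wild-type. Its log2 difference was -0.21 (95% interval -1.42 to 0.99, adjusted p = 0.772) in fed liver, and -0.66 ± 0.28 without library b (adjusted p = 0.0792). In fasted liver the difference was -0.46 (-1.62 to 0.70, adjusted p = 0.474), with levels of 75.3, 91.6 and 40.0 CPM in wild-type and 48.5, 41.6 and 60.5 in labelled knockout. Nr1d2 (chr14:18204054-18239127) held 40.4, 23.0 and 39.2 CPM in fed wild-type and 40.2, 42.1 and 39.0 in fed labelled knockout (log2 difference 0.24, adjusted p = 0.268). In the fasted state Nr1d2 fell by 0.44 ± 0.17 (adjusted p = 0.0340), from 69.6, 71.9 and 58.2 to 45.5, 45.4 and 56.5 CPM, without overlap. It missed the threshold without any 1 of fasted wild-type a or b or fasted labelled knockout a or b, at adjusted p from 0.102 to 0.152, with DESeq2 (-0.40, adjusted p = 0.0813) and with no filter on low counts (-0.32, adjusted p = 0.0650). That fall also turned with the scaling: with library sizes alone the fasted difference of Nr1d2 was 0.07 (adjusted p = 0.728) and the fed one 0.62 (adjusted p = 0.00514, higher in labelled knockout). Scaling by library sizes alone moved the median of all genes by 0.37 in the fed and 0.51 in the fasted comparison.

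**Figure D2:**
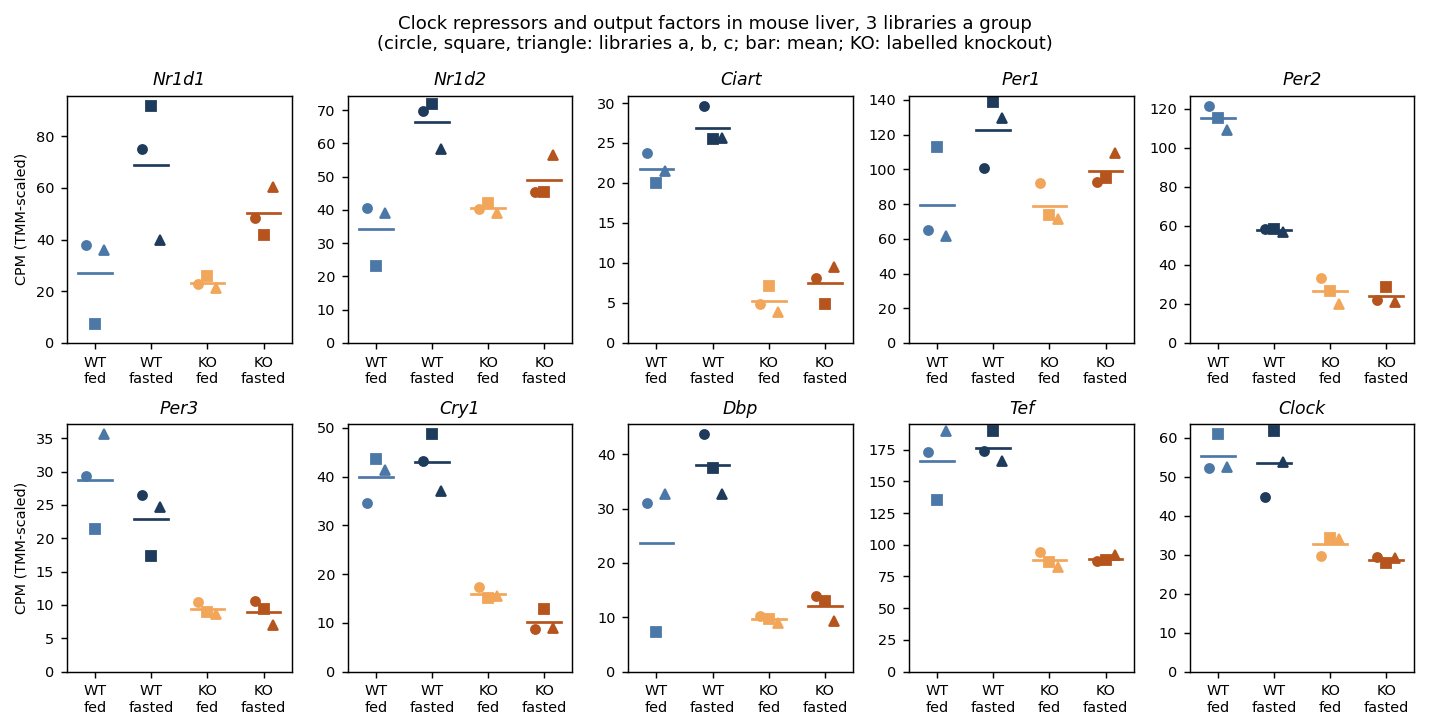
Level of each member in liver (y axis, TMM-scaled CPM, from 0; x axis, the 4 groups; points are libraries a, b and c, bars are means of 3). Ciart, Per2, Per3, Cry1, Tef and Clock lie lower in each labelled knockout library than in any wild-type library, and fed wild-type library b is the lowest of the 12 for Nr1d1 and Dbp.

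Fasting of wild-type mice raised Nr1d2 and Per1 and lowered Per2. These 3 of 10 members passed, against 26.3% of all tested genes, and the members' median log2 change was 0.21 against -0.01 over all tested genes. Per2 fell 2.00-fold (log2 -1.0 ± 0.15, adjusted p = 0.000120), from 109 to 122 CPM in fed to 56.6 to 58.5 in fasted libraries. Nr1d2 rose 1.94-fold (log2 0.96 ± 0.17, adjusted p = 0.000545), and its fed libraries (23.0 to 40.4 CPM) lay below its fasted ones (58.2 to 71.9). Per1, which glucocorticoids and cAMP can induce, rose 1.54-fold (log2 0.63 ± 0.21, adjusted p = 0.0380), although library b (113 CPM) lay within the fasted range (101 to 139).

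Nr1d1 was 2.54-fold higher in fasted than in fed wild-type liver but missed the threshold (log2 1.35 ± 0.53, adjusted p = 0.0968). Without library b the difference was smaller, 1.87-fold, and passed (log2 0.90 ± 0.28, adjusted p = 0.0474). Library b was set apart partly by its low Nr1d1, so that pass rests on a choice made on the tested values. Without library b the 4 members past the threshold were Nr1d1, Nr1d2 (0.74), Per1 (0.96) and Per2 (-1.0), and 18.8% of all genes passed. Per1 missed the threshold without fed library a or c or fasted library b or c (adjusted p from 0.0968 to 0.140), with library sizes alone (0.44, adjusted p = 0.126) and with only the compared groups fitted (adjusted p = 0.120). Ciart, Per3, Cry1, Dbp, Tef and Clock did not pass with or without library b, at log2 changes of -0.33 to 0.68 with it. The fed wild-type libraries enter this comparison and the fed comparison of labels, so those results are not independent.

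In labelled knockout mice no member passed the fasting comparison, in which 1.52% of all genes did, by edgeR's quasi-likelihood test. At an unadjusted p under 0.05 there were 2 members, Ciart and Cry1, and DESeq2 called 1, Cry1. Cry1 stood at 15.1 to 17.4 CPM in fed and 8.73 to 12.9 in fasted labelled knockout, with no overlap (log2 -0.65 ± 0.16, adjusted p = 0.0526). Nr1d1 stood at 21.4 to 25.7 CPM in fed and 41.6 to 60.5 in fasted labelled knockout, also without overlap (log2 1.10 ± 0.52, 95% interval -0.08 to 2.28, adjusted p = 0.316). Nr1d2 and Per1 differed by 0.28 and 0.33, and Per2 by -0.16 (-0.49 to 0.17). For the remaining members, Ciart, Per3, Dbp, Tef and Clock, the log2 difference lay between -0.19 and 0.50.

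The fasting change differed by label for 2 of 10 members, against 12% of all genes in this test of the difference of differences. For Per2 the difference was 0.84 ± 0.22 on the log2 scale (adjusted p = 0.0176), as its level fell with fasting in wild-type and stood at 20.1 to 33.4 CPM in all labelled knockout libraries. For Cry1 it was -0.76 ± 0.22 (adjusted p = 0.0323), with a log2 fasting difference of 0.11 in wild-type and -0.65 in labelled knockout. Without library b, 8.60% of genes passed and the same 2 members did, Per2 at 0.85 (adjusted p = 0.0357) and Cry1 at -0.82 (adjusted p = 0.0403). Cry1 missed the threshold without any 1 of 8 other libraries (fed wild-type a or c, fasted wild-type a or b, fed labelled knockout a or c, fasted labelled knockout a or c), at adjusted p from 0.0506 to 0.0993. For Nr1d1, Nr1d2 and Per1 the differences were -0.25, -0.68 and -0.29 (adjusted p = 0.880, 0.0750 and 0.574), so a fasting change that passed in wild-type alone was not shown to differ for Per1. For Nr1d2 the difference passed with Ensembl genes only (-0.70, adjusted p = 0.0461) and without fed wild-type library a (-0.80, adjusted p = 0.0485). With library sizes alone Cry1 missed the threshold (-0.62, adjusted p = 0.0742).

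**Figure D3:**
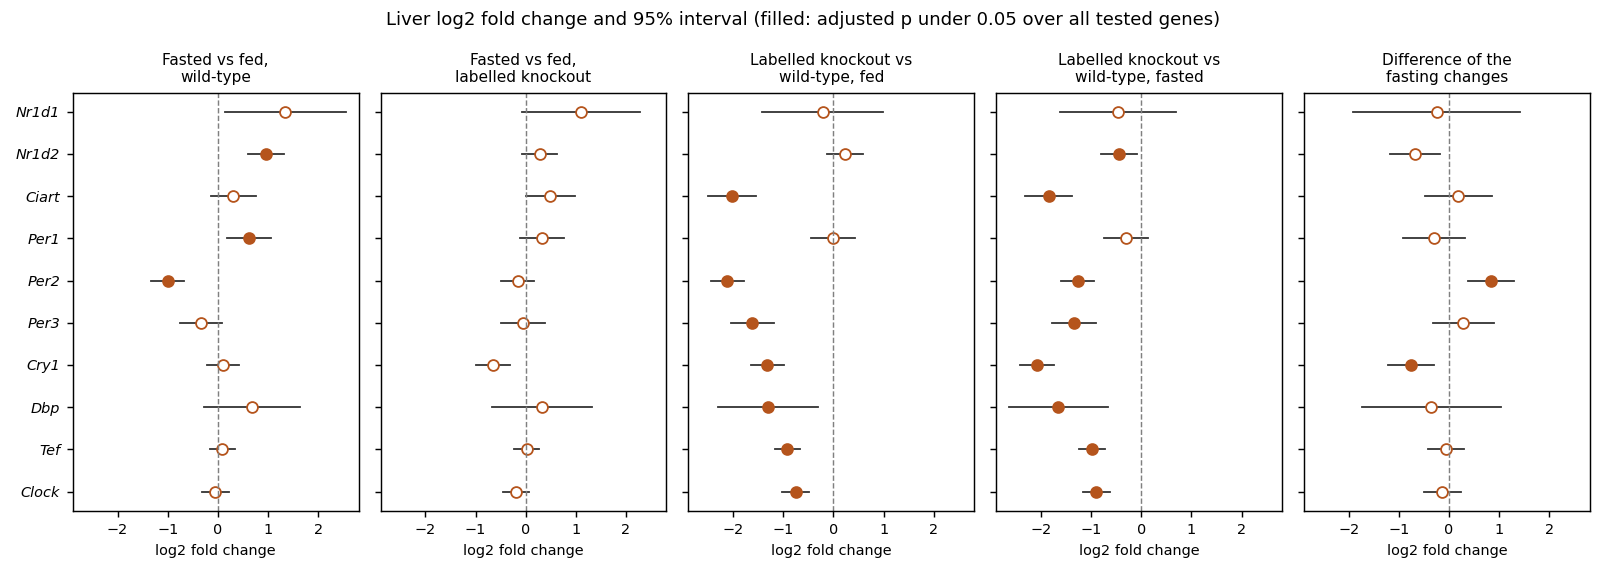
Log2 fold change of each member in the 5 liver comparisons (x axis; points are edgeR estimates, lines 95% intervals, filled points an adjusted p under 0.05 over all 23875 tested genes). Between labels, 7 members in fed and 8 in fasted liver are filled and lie below 0, while no point is filled for fasting in labelled knockout.

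Per kilobase of exon, so that genes can be compared, Tef (21.1 ± 3.55 CPM per kb) and Per2 (19.7 ± 1.05) were the highest members in fed wild-type liver and lay within their spread. Per1 (14.2 ± 5.11) and Cry1 (11.95 ± 1.39) followed, also within their spread. In fasted wild-type liver Tef, Nr1d1 and Per1 stood at 22.4 ± 1.52, 22.4 ± 8.56 and 21.8 ± 3.51 CPM per kb and were not apart, while Per2 was the 8th of 10 at 9.87 ± 0.17. In labelled knockout Per1 had the highest mean, at 14.01 ± 2.01 in fed and 17.6 ± 1.59 in fasted liver, and Tef stood at 11.2 ± 0.75 and 11.3 ± 0.32. Nr1d1 came 2nd in fasted labelled knockout at 16.3 ± 3.10, and it and Per1 lay within their spread there. Per3 was the lowest member in all 4 groups, from 0.93 to 2.99 CPM per kb.

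Other genes of the clock were described by lists, whose counts rest on TMM scaling and were not recomputed with library sizes alone. Beside them stand the shares of all tested genes called in either direction: 46.2% between labels in fed and 56.1% in fasted liver, 26.3% for fasting in wild-type, 1.52% in labelled knockout and 12% for the interaction. Of 20 tested core and regulatory clock genes outside the members, 5 were higher and 6 lower in fed labelled knockout, and 4 were higher and 10 lower in the fasted state, with medians of -0.10 and -0.19, so the fed count was near the share over all genes. Arntl held 16.1, 27.9 and 14.2 CPM in fed wild-type and 10.3, 8.78 and 7.84 in fed labelled knockout, and fell by 1.11 ± 0.24 (adjusted p = 0.00120). That fall includes library b, the highest of the fed wild-type libraries for Arntl, and is not given without it. In fasted liver Arntl fell by 2.42 ± 0.25 (adjusted p = 7.04e-07), from 22.4 to 29.6 CPM in wild-type to 3.42 to 5.92 in labelled knockout. Its fasting change differed by label (log2 -1.31 ± 0.34, adjusted p = 0.0205). Nfil3, a repressor that competes with DBP and TEF at D-boxes, fell by 0.96 in fed and 1.93 in fasted liver (adjusted p = 0.000148 and 5.39e-08), and its fasting change also differed by label (-0.97, adjusted p = 0.0118). Hlf, the third PAR bZIP factor, fell by 2.15 and 1.92, and Cry2 by 0.72 in fed liver. Csnk1e, a kinase of PER proteins, was among those that rose in fed liver (1.07, adjusted p = 1.80e-05). Npas2, which can replace CLOCK, stood at 0.20 to 1.67 CPM in all libraries and did not pass in any liver comparison with all 12 libraries. Without library b Npas2 was higher in fed labelled knockout (log2 1.98, adjusted p = 0.0416).

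In wild-type fasting, 5 of the 20 core and regulatory genes rose and 2 fell, while 26.3% of all genes passed. Rora, an activator at ROR elements, rose by 0.72 ± 0.13 (adjusted p = 0.000634), Ncor1, a corepressor of REV-ERB, by 0.41 and Sirt1, a deacetylase, by 0.52, while Hlf fell by 0.52. Arntl missed the threshold (0.43, adjusted p = 0.195) and passed without library b (0.78, adjusted p = 0.0136). None of the 20 passed in labelled knockout fasting by edgeR's quasi-likelihood test, while 4 had an unadjusted p under 0.05 (among them Bhlhe41, Nfil3 and Arntl).

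Among lists of genes that the members or their partners are known to act on, 6 of 9 tested E-box output genes were lower in fed and 4 of 9 in fasted labelled knockout, with none higher. Usp2, a deubiquitinase, fell by 1.89 and 2.49, and Gys2, liver glycogen synthase, by 2.11 and 3.25. Of 9 REV-ERB and ROR target genes, which include Arntl and Nfil3, 5 were lower and 1 higher in fed and 6 lower and 1 higher in fasted labelled knockout. Elovl3, a fatty acid elongase, was the 1 gene of that list that rose with fasting in wild-type liver, from 1.85 to 19.1 CPM in fed to 103.7 to 340.1 in fasted libraries (log2 4.57 ± 0.79, adjusted p = 0.00331). Of 11 PAR bZIP target genes, 8 were lower and 1 higher in each state. Upp2, uridine phosphorylase, fell by 4.06 and 5.76, and Alas1, which starts heme synthesis, by 1.43 and 1.74, while the higher gene was Cyp2a5 (0.87 in fed liver). In wild-type fasting 4 of the 11 rose, among them Nr1i3, the nuclear receptor CAR (1.92 ± 0.19, adjusted p = 2.95e-06) and Por, the electron donor of cytochromes P450 (0.99), and 1 fell (Alas1, -0.57). In labelled knockout fasting Alas1 alone of the 11 passed (-0.88, adjusted p = 0.0374).

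Genes known to respond to signals that can act on Per1 and Per2 were read from 2 further lists. The signals themselves were not measured. Of 14 glucocorticoid receptor target genes, 7 rose and none fell with fasting in wild-type liver, among them Klf9 (1.16, adjusted p = 2.64e-05), Zbtb16 (1.69) and Cebpd (1.36). In labelled knockout fasting none rose and 2 fell, Klf15 (-0.83) and Tat (-0.81), and the fasting change differed by label for 7 of the 14. Compared with wild-type, 5 of the 14 were higher and 5 lower in fed labelled knockout, and 3 were higher and 7 lower in fasted labelled knockout. Of 12 CREB and serum early genes, 3 rose in wild-type fasting, Junb (0.96), Ppargc1a (2.25) and Sik1 (0.98). Between labels, 7 of the 12 were higher in fed labelled knockout and none was lower, with Fos at 2.31 and Fosb at 4.03, and 7 were higher and 2 lower in fasted labelled knockout. Per1 did not pass between labels in either state, and a link between Per1 and these lists was not tested.

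The genes whose levels ran most like those of a member over the 12 liver libraries were named by the highest Pearson correlation of log2 CPM, as a description. Per2 ran most like Uck1 (r = 0.985), Fkbp4 (0.985) and Thrsp (0.984), and Clock most like Shld2 (0.969), Rdm1 (0.968) and Thrb (0.966). Dbp ran most like Taz (0.943), Phf7 (0.932) and Lmod2 (0.930), and Nr1d1 most like Pdcd6 (0.916), Irak2 (0.914) and Creb3 (0.889). The libraries share groups, so a group difference common to the genes gives a high r.

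The fibroblast values are reported by column heading, and the headings did not run as the labels would have it. Values are the deposited variance-stabilized log2 values, which shrink differences of low genes. As a check chosen after the values were seen, 8 genes known to respond to methionine lack (Mat2a, Chac1, Trib3, Asns, Ddit3, Sesn2, Atf4 and Cth) were summed as normalized counts recovered from the values. The sums were 16596 to 17727 under GFP basal and 20023 to 21312 under GFP deprived, against 57641 to 63214 under GFP 1 h replenished and 68189 to 72567 under GFP 4 h replenished. Under CRE they were 45268 to 49137 in basal and 59910 to 60341 in deprived, against 20327 to 20890 at 1 h and 25954 to 27644 at 4 h of replenishment. So the 12 columns headed GFP replenished, CRE basal and CRE deprived were high, and the 12 headed GFP basal, GFP deprived and CRE replenished were low. Because of that split, the values below are given by heading, as names of columns, and not as effects of Vps15 or of methionine. Pik3r4 was not lower under CRE headings: its log2 values were 9.60 to 10.03 under GFP and 9.74 to 10.15 under CRE. It was higher under CRE in the basal, deprived and 1 h comparisons. As in liver, these values cover the whole gene and the deleted part is not named, so they do not check the headings. Summed normalized counts of 8 fibroblast markers were 211029 to 360527 in all libraries, of 4 epithelial markers 3.92 to 21.3 (with up to 2 of the 4 at 0 in a group), and of the 3 leukocyte markers with a value 122.0 to 221.9.

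By heading, Ciart, Nr1d1, Nr1d2, Per1, Per2 and Dbp followed that split, each higher in every high column than in any low one. Per3, Cry1, Tef and Clock did not follow it fully. Per3 had a mean of 8.15 under GFP basal and 8.11 under CRE basal, and Clock 10.22 and 10.23. Cry1 stood at 9.23 under both CRE basal and CRE 4 h, and Tef at 10.81 under both GFP 4 h and CRE 1 h. CRE headings were above GFP headings for 8 of 10 members in basal (58.3% of all genes called by limma) and for 9 of 10 in deprived columns (62.6%), and none was below. At 1 h of replenishment 9 of 10 members were below (55.0% called) and at 4 h 10 of 10 (59.8%). The share called higher in basal and deprived was 29.7% and 32.0% of all genes, and the share called lower at 1 h and 4 h 28.1% and 29.0%. The median difference of the members was 0.56, 0.53, -0.48 and -0.53 in that order, while the median of all tested genes was at most 0.01 from 0.

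Ciart had the widest range of the members. Its log2 values were 6.41, 6.20 and 6.31 under GFP basal, 6.93, 7.02 and 6.93 under GFP deprived, 8.96, 8.88 and 8.93 under GFP 1 h, and 9.18, 9.31 and 9.33 under GFP 4 h. Under CRE they were 8.56, 8.63 and 8.55 in basal, 8.88, 8.86 and 8.93 in deprived, 6.94, 6.90 and 6.97 at 1 h, and 7.71, 7.55 and 7.66 at 4 h. In normalized counts the group means ran from 47.4 (GFP basal) to 584.2 (GFP 4 h). The CRE minus GFP difference was 2.27 ± 0.07 (SE) in basal, 1.93 in deprived, -1.99 at 1 h and -1.63 at 4 h, and no pair of groups overlapped (adjusted p from 6.38e-23 to 2.64e-19).

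Nr1d1 stood at 8.56 ± 0.07 and 8.59 ± 0.02 (SD, n = 3) under GFP basal and deprived, and at 9.47 ± 0.15 and 10.20 ± 0.05 under GFP 1 h and 4 h. Under CRE it stood at 9.75 ± 0.06, 10.10 ± 0.04, 8.77 ± 0.12 and 8.98 ± 0.14 in the same order. The CRE minus GFP differences were 1.19, 1.51, -0.70 and -1.22, all past the threshold without overlap. Its paralogue Nr1d2 followed with smaller differences of 0.53, 0.61, -0.55 and -0.49.

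Among the period genes, Per2 differed most, by 0.75, 0.91, -0.997 and -1.44, with its lowest group mean, a log2 value of 6.97 ± 0.04, under CRE 4 h and its highest, 8.52 ± 0.16, under GFP 1 h. Per1 differed by 0.37, 0.31, -0.52 and -0.87. Per3 did not pass in basal (-0.04, 95% interval -0.23 to 0.15) or deprived columns (-0.19, adjusted p = 0.0736), and was lower under CRE at 1 h (-0.42) and 4 h (-0.55). Cry1 differed by 0.69, 0.93, -0.34 and -0.44. Dbp differed by 0.60, 0.43, -0.44 and -0.30, and its libraries did not overlap between headings in any of the 4 comparisons. Tef was higher under CRE in basal and deprived (0.37 and 0.45), did not pass at 1 h (-0.05, adjusted p = 0.383) and was lower at 4 h (-0.13, adjusted p = 0.0282). Clock did not pass in basal (0.01, adjusted p = 0.887), and differed by 0.20, -0.35 and -0.51 in the later headings. In deprived columns Per3 was lower under CRE with each library set at 1 median (-0.27, adjusted p = 0.0131) and with only the compared groups fitted (adjusted p = 0.0402), and Clock missed the threshold at 1 median (0.12, adjusted p = 0.0697).

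CRE 4 h library 3 stood apart from the others of its group: Per1 was 9.17 there against 9.62 and 9.63, and Per3 was 7.27 against 7.72 and 7.68. Without it 9 of 10 members were lower under CRE at 4 h (57.6% of all genes called, 28.0% lower), with Tef at -0.09 (adjusted p = 0.127), and Per1 and Per3 at -0.72 and -0.40. Tef also missed the threshold without GFP 4 h library 1 or 2 (adjusted p = 0.0917 and 0.0634), with each library set at 1 median (-0.09, adjusted p = 0.139), with no filter (0.0561) and with no variance trend (0.0507).

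**Figure D4:**
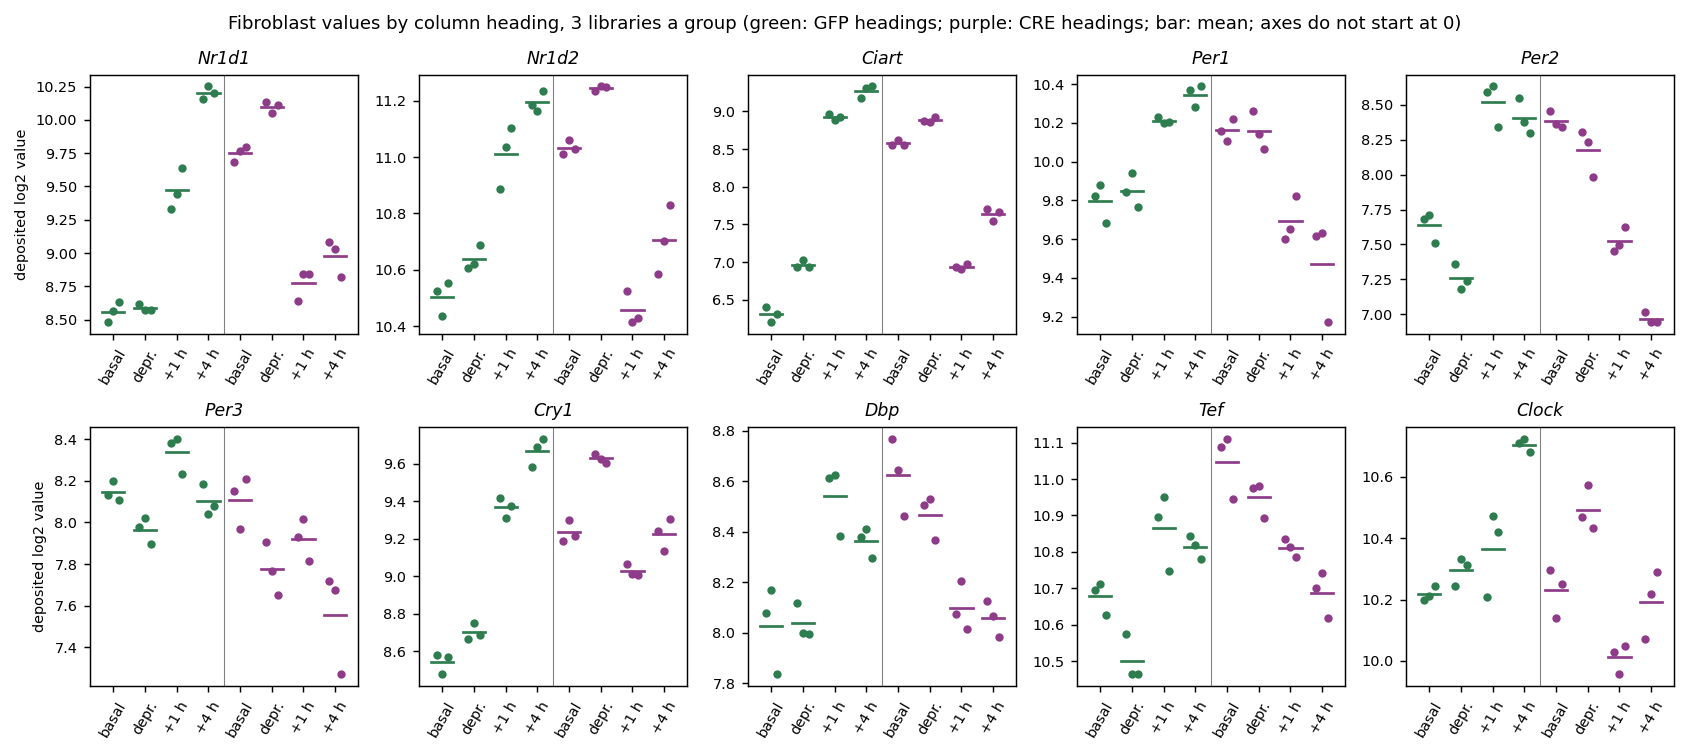
Deposited log2 value of each member in fibroblasts by column heading (x axis, GFP then CRE headings in basal, deprived, 1 h and 4 h replenished; points are 3 libraries a group, bars means; y axes do not start at 0). Ciart, Nr1d1, Nr1d2, Per1, Per2 and Dbp are high under GFP replenished, CRE basal and CRE deprived headings. Ciart lies between 8.55 and 9.33 there and between 6.20 and 7.71 elsewhere.

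**Figure D5:**
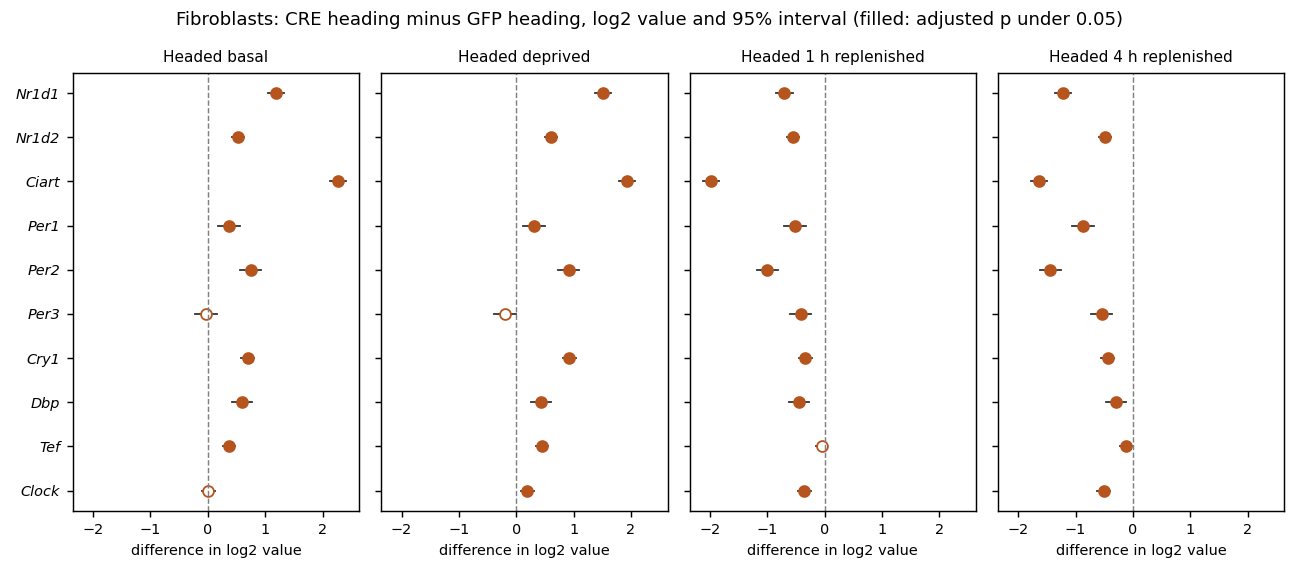
CRE minus GFP difference of each member at the 4 headings (x axis, difference in log2 value; points are limma estimates, lines 95% intervals, filled points an adjusted p under 0.05 over 13914 genes). Filled points lie above 0 for 8 members in basal and 9 in deprived columns, and below 0 for 9 and 10 members at 1 h and 4 h.

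Along the headings within GFP, 4 of 10 members passed from basal to deprived (23.6% of all genes): Ciart rose by 0.66, Cry1 by 0.16, and Per2 and Tef fell by 0.38 and 0.18. From deprived to 1 h replenished 9 of 10 rose (59.5% called, 30.7% higher), Ciart by 1.96, Per2 by 1.26, Nr1d1 by 0.89 and Cry1 by 0.67, with Clock the exception (0.07, adjusted p = 0.305). From 1 h to 4 h, 6 of 10 passed (36.7%): Nr1d1, Nr1d2, Ciart, Cry1 and Clock rose, Nr1d1 by 0.73, and Per3 fell by 0.24 (adjusted p = 0.0444). Cry1 missed the threshold from basal to deprived without basal library 2 or deprived library 2 or 3 (adjusted p from 0.0549 to 0.159), with no filter (0.104), with only the compared groups (0.0707), and with edgeR or DESeq2 on the recovered counts (0.0524 and 0.112). From 1 h to 4 h, Nr1d2 missed it without 1 h library 1 (adjusted p = 0.0753), and Per3 without 1 h library 1 or 2 or 4 h library 2 or 3 (adjusted p from 0.106 to 0.137). Per3 also missed it there with each library at 1 median, with no filter, with no variance trend and with DESeq2 on the recovered counts (adjusted p from 0.0538 to 0.0718).

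Within CRE, 6 of 10 passed from basal to deprived (28.5% of all genes): Nr1d1, Nr1d2, Ciart, Cry1 and Clock rose by 0.21 to 0.39, and Per3 fell by 0.34. From deprived to 1 h replenished 9 of 10 fell (60.1% called, 30.1% lower), Ciart by 1.95, Nr1d1 by 1.33, Nr1d2 by 0.79 and Per2 by 0.65, with Per3 not past (0.15, adjusted p = 0.177). From 1 h to 4 h, 7 of 10 passed (25.4%): Ciart rose by 0.70, Nr1d2 by 0.25, Nr1d1 by 0.21, Cry1 by 0.20 and Clock by 0.18, and Per2 and Per3 fell by 0.56 and 0.37. Without CRE 4 h library 3, 4 members passed that last step (22.3% of all genes): Nr1d1 (0.28), Nr1d2 (0.19), Ciart (0.69) and Per2 (-0.55). Nr1d1 missed the threshold there without 1 h library 1 or 4 h library 1 or 2 (adjusted p from 0.0885 to 0.196), and Clock without 1 h library 2 or 4 h library 2 (0.0943 and 0.0553). With only the compared groups fitted Nr1d1, Per3, Cry1 and Clock missed it (adjusted p from 0.0511 to 0.129), and Nr1d1 did so with no variance trend (0.0503). In the earlier steps, Per3 missed it from basal to deprived without deprived library 3 (adjusted p = 0.0516), and Tef from deprived to 1 h without deprived library 1 or 2 or 1 h library 3 (adjusted p from 0.0592 to 0.0650) or with each library at 1 median (-0.07, adjusted p = 0.223). At 1 median Per3 rose in that step (0.21, adjusted p = 0.0465). Neighbouring steps share a group, so their values are given side by side and not as independent results.

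The difference between the CRE and GFP steps was tested as an interaction. For the step from deprived to 1 h it passed for 9 of 10 members, all negative (66.5% of all genes called, 33.1% negative), from -3.91 ± 0.10 for Ciart to -0.50 ± 0.07 for Tef, with Per3 not past (-0.23, adjusted p = 0.127). For the step from basal to deprived 1 of 10 passed, Ciart (-0.35, adjusted p = 0.0364), as did 4.78% of all genes. It passed without GFP basal library 1 or GFP deprived library 3, and missed the threshold without any other 1 library of that step, at adjusted p from 0.0502 to 0.0944, and with no filter (0.112). Nr1d1 passed in that step with only the compared groups (0.32, adjusted p = 0.00867). For the step from 1 h to 4 h 3 of 10 passed (7.14%): Nr1d1 (-0.52), Ciart (0.35) and Per2 (-0.44). Without CRE 4 h library 3 the same 3 passed (5.78%). Ciart missed the threshold without GFP 1 h library 1, GFP 4 h library 1, CRE 1 h library 2 or CRE 4 h library 1 (adjusted p from 0.0549 to 0.0785), and Per2 without GFP 1 h library 3, GFP 4 h library 1 or CRE 1 h library 3 (0.0892 to 0.0970). With only the compared groups both missed it (0.0560 and 0.0599), and Ciart also with no filter (0.0761).

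Per kilobase of exon, Nr1d2 was the highest member under all 8 headings, with 253.4 to 441.9 normalized counts per kb. Nr1d1 stood 2nd under GFP 4 h, CRE basal and CRE deprived. By group mean, the lowest member was Ciart under GFP basal (20.98), Per2 under GFP deprived (20.4) and CRE 4 h (15.7), and Per3 under the other 5 headings. Per3 was close to Per2 under GFP deprived (22.4) and CRE 4 h (16.2). The spread per kb was not computed in fibroblasts, so their order there is a description only. In liver Per2 had been among the highest members in fed wild-type and Nr1d2 among the lowest, but the units of the tables differ and no test between them was made.

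Lists of other clock genes were read at the same headings. Of 20 tested core and regulatory genes, 10 were higher and 2 lower under CRE in basal and in deprived columns. Those counts were near the share of all genes called (58.3% and 62.6%). At 1 h and at 4 h, 5 were higher and 12 lower, where 55.0% and 59.8% of all genes were called. The median differences of the 20 were 0.14, 0.10, -0.21 and -0.28 in the order basal, deprived, 1 h and 4 h. Nfil3 differed by 1.63, 1.95, -1.55 and -1.47, and Arntl by 0.40, 0.44, -0.86 and -0.81. Npas2 did not pass in any of the 13 fibroblast comparisons, with group means of 5.25 to 5.59. Bhlhe40 (DEC1), a repressor at E-boxes, differed by 0.83 in deprived and -1.48 in 4 h columns. Of 8 tested E-box output genes, 4, 5, 0 and 0 were higher and 1, 0, 6 and 6 lower in the same order, with Klf10, an early growth response factor, at 1.02, 1.33, -1.30 and -1.48. The E-box counts in basal and deprived columns were also near the share over all genes. Of 8 REV-ERB and ROR target genes, 5, 5, 0 and 0 were higher and 1, 1, 5 and 6 lower, with Cdkn1a, a cell cycle inhibitor, at 0.96, 1.28, -2.03 and -1.54.

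Over the 24 fibroblast libraries, Nr1d1 ran most like Mphosph10 (r = 0.976), Spata2 (0.975) and Utp15 (0.975). Per2 ran most like Fhl1 (0.968), Rapgef2 (0.962) and Elac1 (0.959), Clock most like Lonrf3 (0.965), Cpeb4 (0.961) and Kif5b (0.959), and Dbp most like Tle1 (0.927), Ackr3 (0.917) and Bcl9 (0.910). These are descriptions over libraries that share the split of columns. None of the genes named for a member in liver was named for it in fibroblasts. With only 3 genes named per member, out of 13056 in liver and 12294 in fibroblasts, that draws no comparison of the tissues.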

How the data were processed

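Poly-A RNA was sequenced from 12 liver and 24 fibroblast libraries. The liver table holds deposited counts per gene, made from mm10 alignments with HISAT2 and Subread per the submitters' processing notes; the counting's strand setting is not given in the sources used here. The fibroblast table holds deposited log2 values, variance-stabilized per the file's name, from STAR 2.7.10b and featureCounts counts with DESeq2 and limma named in the submitters' processing notes. Whole counts were recovered from 100% of those values within 0.01.

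Liver counts were fitted over all groups with edgeR 4.0.16 (TMM factors 0.801 to 1.22, filterByExpr, robust quasi-likelihood test), and fibroblast values with limma 3.58.1 (trend and robust), leaving out genes with a mean less than 1 above 4.17, the lowest value of the table. Benjamini-Hochberg adjustment covered every tested gene, and calls were made at 0.05. Of 48526 Ensembl IDs, 48058 matched a symbol. The 87774 NONCODE IDs held 20.5 to 24.8% of liver counts. Alternatives were RLE factors and DESeq2 1.42.0 (both on liver counts), library sizes alone, no filter, Ensembl genes only, other fits of the fibroblast values and recovered counts, and each library left out. The scripts were tested on simulated data. R was 4.3.3.

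All members were named whatever their p. From each gene list, at most 4 genes with the smallest adjusted p were named, with Arntl, Nfil3 and Npas2 always, and the 3 genes most correlated with each of Nr1d1, Dbp, Per2 and Clock. Members and lists were chosen with earlier results of these data known, so no list is independent evidence. Some listed genes were counted but are not reported here by name.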

Additional observations from a re-analysis of the deposited data

Results flagged for a closer look

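In liver, the fasting change differed by label for Per2 (0.84 ± 0.22 on the log2 scale, adjusted p = 0.0176) and for Cry1 (-0.76 ± 0.22, adjusted p = 0.0323), by the interaction term of edgeR's quasi-likelihood fit. The Cry1 difference missed the threshold in most fits with 1 library left out (adjusted p from 0.0506 to 0.0993). It also missed it with library sizes alone (adjusted p = 0.0742). Per2, a repressor of CLOCK and BMAL1, was higher in each fed wild-type library (109 to 122 CPM) than in each fasted one (56.6 to 58.5). In labelled knockout the fed and fasted ranges of Per2 overlapped. Cry1, the cryptochrome partner of PER proteins, stood at 15.1 to 17.4 CPM in fed and 8.73 to 12.9 in fasted labelled knockout, while its wild-type ranges overlapped. Macrophage markers also moved with fasting in wild-type liver, where 10 of 10 fell, and their part in these differences was not tested.

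In fibroblasts, the step from deprived to 1 h replenished columns differed between CRE and GFP headings by limma's interaction term for 9 members. The difference was -3.91 for Ciart (adjusted p = 8.84e-26), -2.21 for Nr1d1 (3.48e-19), -1.91 for Per2 (1.05e-14) and -1.27 for Cry1 (1.59e-15). It was smaller for Nr1d2 (-1.16), Dbp (-0.87), Per1 (-0.83), Clock (-0.55) and Tef (-0.50). These members rose under GFP, apart from Clock (0.07, adjusted p = 0.305), and fell under CRE. The step from basal to deprived differed for Ciart (-0.35, adjusted p = 0.0364), which rose by 0.66 under GFP and by 0.31 under CRE, and for 4.78% of all genes. That Ciart difference missed the threshold without most single libraries of the step (adjusted p from 0.0502 to 0.0944). The step from 1 h to 4 h differed for Nr1d1 (-0.52, adjusted p = 0.00107), Ciart (0.35, adjusted p = 0.0250) and Per2 (-0.44, adjusted p = 0.0290), and for 7.14% of all genes. In that step Ciart and Per2 missed the threshold without some single libraries (adjusted p from 0.0549 to 0.0970). The headings limit all of these values, since genes of the methionine response split the columns in the same way.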

How the results depend on the processing

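Counts of members past the threshold are given first, then their values under alternatives. In labelled knockout fasting the count was 0, and 1 with library sizes alone, with DESeq2, with no filter, with Ensembl genes only and with only the compared groups (0 to 1 when each library was left out). The gained member was Cry1 (adjusted p = 0.0154 by DESeq2), except Nr1d1 with only the compared groups. The liver interaction gave 2, 1 with library sizes alone and 3 with Ensembl genes only (1 to 2 when each library was left out). From 1 h to 4 h under CRE the count was 7, and 3 with only the compared groups (4 to 7). The deprivation interaction gave 1, and 0 with no filter and 2 with only the compared groups (0 to 2). The 4 h against 1 h interaction gave 3, and 1 with only the compared groups (1 to 4). When each library was left out, the other counts ranged from 2 to 4 for fasting in wild-type liver, 6 to 7 and 7 to 8 between labels in fed and fasted liver, 8 to 8, 9 to 10, 9 to 9 and 9 to 10 for CRE against GFP, 3 to 4, 9 to 10 and 4 to 7 along the GFP steps, 5 to 7 and 8 to 9 along the first 2 CRE steps, and 9 to 9 for the 1 h interaction. With library sizes alone Nr1d2 between labels in fasted liver turned to 0.069, not past the threshold. Of 360 single liver values with a library left out, 336 kept their side of the threshold, and of 960 in fibroblasts, 909 did. With RLE factors 50 of 50 did. Values past the threshold in neither fit count as kept even where their sign changed. Over all alternatives, that was so for 33 of 650 single values in liver and 16 of 1870 in fibroblasts.

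Over all genes, 362 passed in labelled knockout fasting, against 932 with DESeq2, 1456 with no filter, 563 with Ensembl genes only and 33 with only the compared groups. From 1 h to 4 h under CRE 3539 passed, against 2217 with only the compared groups. The deprivation interaction gave 665, against 419 with no filter and 1109 with only the compared groups, and the 4 h against 1 h interaction 994, against 646 and 477. Library sizes alone moved the split of higher to lower calls: 2981 to 3301 became 1785 to 5202 (wild-type fasting), 199 to 163 became 165 to 302 (labelled knockout fasting), 5572 to 5450 became 9925 to 3055 (fed labels), 6686 to 6697 became 11706 to 3567 (fasted labels) and 1512 to 1361 became 2244 to 1014 (interaction). Setting fibroblast libraries at 1 median moved CRE against GFP from 4127 to 3986 into 3204 to 5111 (basal), from 4457 to 4260 into 3582 to 5449 (deprived) and from 3745 to 3913 into 4903 to 3067 (1 h). It moved the 1 h step from 4271 to 4004 into 3373 to 5229 (GFP) and from 4180 to 4189 into 5302 to 3466 (CRE), and the interactions from 4658 to 4599 into 6107 to 3660 (1 h) and from 591 to 403 into 395 to 536 (4 h). The cause of these changes was not tested.

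No paired analysis was possible in liver because its columns carry no replicate numbers. In fibroblasts the numbers were not taken as pairs because the labels do not say what a number marks. In deviations from the group means, 10 of 84 same-numbered pairs of libraries correlated above 0.1 (median 0.024). Of differently numbered pairs, 9 of 168 did (median -0.017). These correlations do not decide whether the numbers mark pairs. With a replicate block the deprivation interaction called 2 members (Nr1d1 added, adjusted p = 0.0417), and 125 of 130 single values kept their side, the other 5 passing only with the block. In 78 of 168 checks, each among the 3 libraries of another group, a library correlated best with its own number. Without pairing, each of the 3 would be equally likely to come out best. The checks share libraries and were not tested, so they do not decide the question either.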
